A study of Danio rerio with 26 samples.

Results

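The cytosolic ribosomal protein genes encode the protein components of the ribosomes that translate nuclear mRNAs. On the arrays studied here they were the genes whose platform symbol began with rpl or rps followed by a number, by p and a number, or by a, without the kinase genes of the rps6k family. They numbered 70 of the 19260 genes with a single-symbol probe set, 40 of the large (60S) subunit by symbol and 30 of the small (40S) subunit. Each gene was read on 1 probe set, the one with the highest mean over all 26 arrays. The rule used no comparison between groups.

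The tissue came from the telencephalon of adult zebrafish aged 3 to 6 months, all carrying the reporter transgene Tg(gfap:gfp)mi2001, in which the promoter of the glial gene gfap drives green fluorescent protein. Samples are of the dorsal parenchyma, of the ventricular lining above it (dorsal subventricular zone, SVZ) and of a neurogenic zone on the medial side, each at day 2 or day 7 after a stab wound or with no lesion. Of parenchyma there were 3 arrays at day 2, 3 at day 7 and 2 unlesioned, of dorsal SVZ 3 of each kind, and of medial zone 4, 3 and 2. Arrays count as biological replicates in the labels, which do not say how many animals went into one, and the p-values then measure the spread between these arrays. The medial zone is absent from the design text, and the lesion is a stab wound there but a microinjection through the skull in the treatment protocol.

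A ribosome joins a small subunit, which binds the mRNA and decodes it, to a large subunit, which forms the peptide bonds. Its proteins are needed in nearly equal numbers and are made in step with ribosomal RNA, under the control of growth signals such as the mTOR kinase and the Myc transcription factors. The ventricular zones of the adult zebrafish telencephalon hold radial glia that act as neural stem cells, together with dividing progenitors, whereas the parenchyma holds mostly neurons and their processes. Values below are log2 intensities, so that a difference of 1 is a doubling of signal.

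Of the samples as a whole, the array medians lay between 3.01 and 3.21, no 2 arrays were identical, and the highest correlation between arrays was 0.977. Radial glia markers separated the parenchyma from both ventricular regions, which overlapped with each other: the mean of 15 such genes was 6.52 to 7.27 over the parenchyma arrays, 8.12 to 8.62 over the dorsal SVZ arrays and 8.40 to 8.78 over the medial arrays. The glial lipid-binding protein gene fabp7a was at 9.08 to 10.12 in the parenchyma, 11.20 to 11.48 in the dorsal SVZ and 11.18 to 11.71 in the medial zone. Not every gene of the list followed. The glial filament gene gfap had medians of 8.08, 7.26 and 7.44. The gene cyp19a1b was at 10.35 to 11.05 in the parenchyma, 7.70 to 9.70 in the dorsal SVZ and 10.73 to 11.29 in the medial zone. It thus ran the other way in the dorsal SVZ, without overlap. The mean of 17 genes of the subpallium was 7.21 to 8.07 in the medial zone, 4.25 to 4.83 in the dorsal SVZ and 4.82 to 6.13 in the parenchyma. Within the parenchyma it was 4.87 to 4.94 with no lesion, 4.82 to 5.57 at day 2 and 5.50 to 6.13 at day 7. The mean of 10 oligodendrocyte genes there was 5.56 to 5.69, 5.67 to 5.82 and 6.19 to 6.56. In bulk tissue, fewer cells of a type and less RNA per cell cannot be told apart, and this holds for each comparison below.

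Most ribosomal protein probe sets were bright. The mean over the arrays was above 10 for 51 members, between 7 and 10 for 9 and below 7 for 10, with a median of 10.64, against a median of 3.09 over all 75212 probe sets of the table. The brightest were rpl26, at 11.99 to 12.49 over the 26 arrays, rps14 at 11.92 to 12.34, rplp2b and rps26. At the other end, rps24 lay at 2.92 to 3.54 and rpl10, a late-joining protein of the large subunit, at 3.25 to 3.77. These 2 probe sets were within 1 of the table median and so close to background, and rpl22l1 (mean 4.28) and rps27l (4.64) were also dim. Signals of different probe sets depend on their probes, so this order is one of signal and not of mRNA amount.

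**Figure D1:**
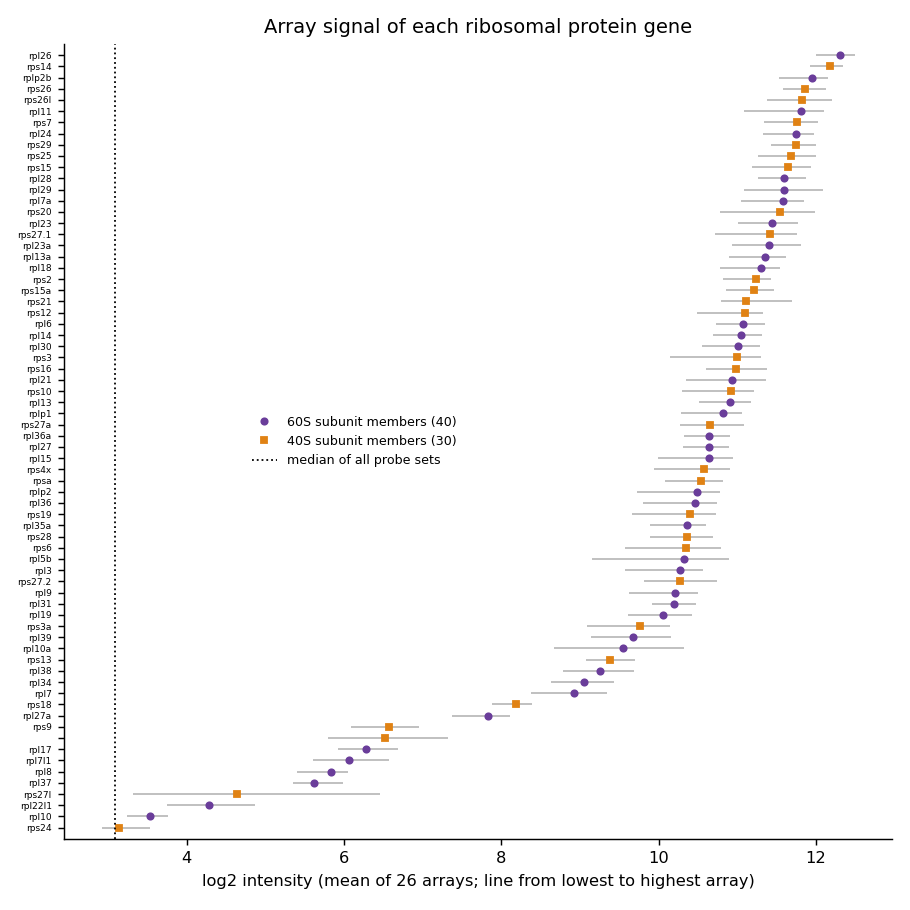
Mean log2 intensity over the 26 arrays (x axis) of each of the 70 members (y axis), with a line from the lowest to the highest array. Purple circles are large subunit members, orange squares small subunit members, and the dotted line is the median of all probe sets. Most members sit above 10, and rps24 and rpl10 sit next to the dotted line. A single row carries no name.

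The signals of the members varied less between groups than those of other genes with high signal. The range of the 9 group means had a median of 0.44 over the members, against 0.71 over the other genes with a mean above the 90th percentile. The residual SD within groups had a median of 0.15 against 0.23. Those other genes were dimmer than most members, with medians of 8.04 to 8.32 on the arrays, and genes of equal signal were not compared. The narrowest ranges belonged to rps14 (0.16) and rps26 (0.17). Among the widest were those of rps27l (1.83), rpl5b (1.04) and rpl10a (0.89). The spread between replicates was not equal in the regions: the median residual SD of the members was 0.19 in the parenchyma, 0.10 in the dorsal SVZ and 0.13 in the medial zone.

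The first question was whether the lesion changed ribosomal protein genes. No member passed the test in any of the 6 comparisons of a time after lesion with no lesion in the same region (limma, adjusted p under 0.05 over all genes). The background in these comparisons was low. Of all genes, 2.04% were called at day 2 and 0.125% at day 7 in the parenchyma, 0.27% and 0% in the dorsal SVZ, and 0.493% and 0% in the medial zone. At an unadjusted p under 0.05, the members that differed numbered 0 and 2 in the parenchyma at day 2 and day 7, 3 and 1 in the dorsal SVZ, and 0 and 0 in the medial zone. The members' shares were below those of all genes at this threshold, which were 12.5% and 10.8%, 6.8% and 4.45%, and 8.39% and 4.07%.

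Although no single gene was called, the members lay slightly above the unlesioned level at day 2. In the parenchyma, the median of the 70 members on each array was 10.66 and 10.54 on the unlesioned arrays, 10.70, 10.73 and 10.84 at day 2, and 10.27, 10.62 and 10.70 at day 7. The day 2 arrays all lay above the unlesioned ones there. The day 7 arrays spread from below the unlesioned group to just above the lowest day 2 array. In the dorsal SVZ the medians were 10.76, 10.81 and 10.68 with no lesion, 10.82, 10.79 and 10.82 at day 2, and 10.71, 10.69 and 10.75 at day 7. The unlesioned arrays overlapped with both lesioned groups there, and the day 7 arrays all lay below the day 2 arrays. In the medial zone the medians were 10.71 and 10.61 with no lesion, 10.76, 10.82, 10.68 and 10.75 at day 2, and 10.48, 10.55 and 10.73 at day 7, again with overlap.

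**Figure D2:**
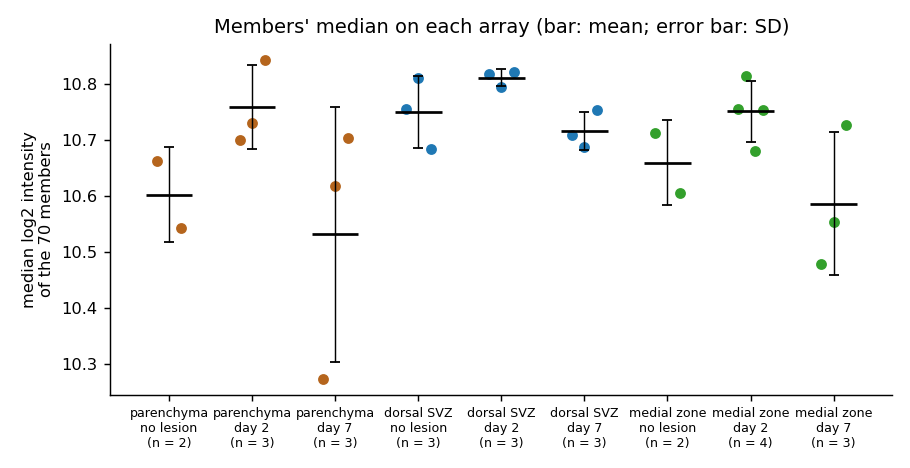
Median log2 intensity of the 70 members (y axis) on each of the 26 arrays (points), by region and time (x axis), with the group mean as a bar and the SD as an error bar. The lowest point is parenchyma day 7 replicate 1 at 10.27, and the day 7 groups of the parenchyma and medial zone spread most.

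Gene by gene, the log2 fold change at day 2 was positive for 58 of 70 members in the parenchyma, with a median of 0.12. It was positive for 62 in the dorsal SVZ, with a median of 0.099, and for 60 in the medial zone, with a median of 0.089. Leaving out 1 array moved these medians within 0.080 to 0.16 in the parenchyma (lowest without day 2 replicate 3), 0.056 to 0.14 in the dorsal SVZ (lowest without the unlesioned replicate 3) and 0.0625 to 0.12 in the medial zone. Over all genes tested the same medians were -0.0035, 0.017 and -0.0056. Positive at day 2 in all 3 regions were 49 members, which is 70% of them, where 18.4% of all genes were. The sign of the median was the same when the arrays were quantile-normalised again (0.054, 0.082 and 0.046) or centred on their own medians (0.18, 0.087 and 0.063). The arrays of a group did not overlap with the unlesioned ones, in the higher direction, for 30 members in the parenchyma, 16 in the dorsal SVZ and 19 in the medial zone, where 12.8%, 7.96% and 8.3% of all genes did so. These shares for the members were 42.9%, 22.9% and 27.1%. In the lower direction it was 1, 0 and 0 members, against 12%, 6.09% and 8.3% of all genes. The members deviated together within an array, as on parenchyma day 2 replicate 2, where 59 of 70 lay below their group mean. Same-numbered day 2 arrays of the parenchyma and dorsal SVZ also deviated together (r from 0.15 to 0.24). These counts of members and regions are therefore not counts of independent observations.

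Markers of other cells moved in the same comparisons. Of 27 genes of microglia and macrophages, 20 were called higher at day 2 in the parenchyma, 10 in the dorsal SVZ and 11 in the medial zone. The median log2 fold changes of the list were 2.12, 0.98 and 1.05. Their mean level rose from 4.56 to 4.60 over the unlesioned parenchyma arrays to 6.28 to 7.15 at day 2. Of 26 cell cycle genes, 2, 1 and 5 were called higher. The mean level of this list rose without overlap in each region. It went from 3.73 to 3.79 up to 4.01 to 4.52 in the parenchyma, and from 3.74 to 4.02 up to 4.30 to 4.79 in the dorsal SVZ. In the medial zone it went from 4.45 to 4.54 up to 5.32 to 5.63. The part of these cells in the small shift of the ribosomal protein genes was not tested.

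At day 7 the members had no common direction. The log2 fold change against no lesion was positive for 19 of 70 members in the parenchyma (median -0.062), for 50 in the dorsal SVZ (median 0.0735) and for 30 in the medial zone (median -0.03). In the parenchyma 1 array decided the sign. Replicate 1 of the day 7 group lay below its group mean in 66 of 70 members, and without it the median was 0.0497. Without replicate 3, the highest of that group, it was -0.17. The medial zone behaved in the same way on a smaller scale, where the median was 0.020 without replicate 1 and -0.096 without replicate 3. In the dorsal SVZ the median was 0.031 without day 7 replicate 3 and 0.12 without the unlesioned replicate 2. Groups that did not overlap with the unlesioned arrays were found for 0 members higher and 10 lower in the parenchyma, against 11.7% and 9.98% of all genes. They were found for 11 higher and 1 lower in the dorsal SVZ, against 6.5% and 6.04%, and for 2 higher and 3 lower in the medial zone, against 9.33% and 9.44%.

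The precision bounds the change in measured signal that could have gone unseen after a lesion, and not the change in mRNA amount. The SE of a lesion log2 fold change had a median of 0.15 to 0.17 over the members, and its 95% interval lay within -1 to 1 for 69 of 70 members in each of the 6 comparisons. It lay within -0.5 to 0.5 for 42 members at day 2 in the parenchyma, 59 in the dorsal SVZ and 54 in the medial zone.

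**Figure D3:**
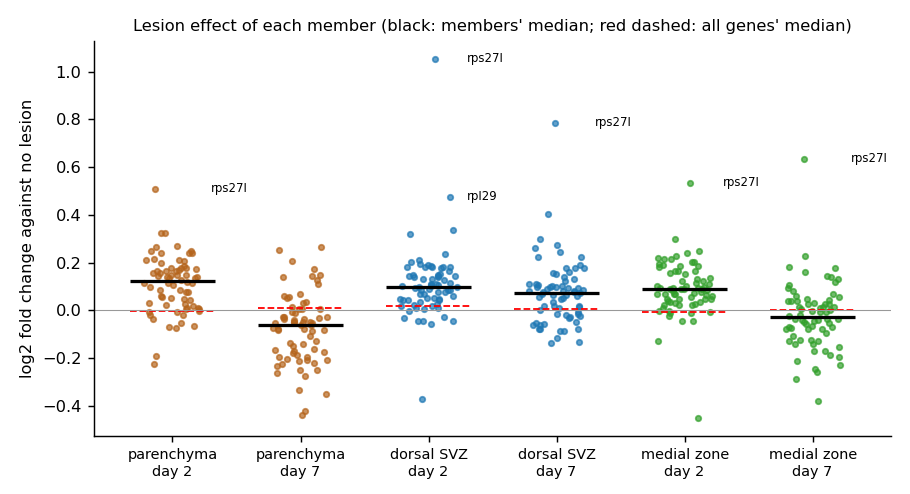
Log2 fold change against no lesion (y axis) of each of the 70 members (points) in the 6 lesion comparisons (x axis), with the members' median in black and that of all genes as a red dashed line. The day 2 medians are 0.12, 0.099 and 0.089, and rps27l lies apart from the rest in 5 of the comparisons.

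The member farthest from the others was rps27l (probe set 13158061), the gene of an Rps27-like protein that p53 induces in human and mouse cells. In the dorsal SVZ it was at 4.31, 4.43 and 4.03 with no lesion, 5.27, 4.99 and 5.66 at day 2, and 4.64, 5.19 and 5.29 at day 7. All lesioned dorsal SVZ arrays lay above the unlesioned ones. The log2 fold change was 1.05 (SE 0.41) at day 2, with an unadjusted p of 0.0168 and an adjusted p of 0.54, and 0.78 (SE 0.41, adjusted p = 1) at day 7. In the parenchyma it was at 3.95 and 3.84 with no lesion, 4.203, 4.149 and 4.856 at day 2, and 3.57, 3.31 and 3.54 at day 7. There the day 2 arrays lay above and the day 7 arrays below the unlesioned ones, and the difference of day 7 from day 2 was -0.93 (SE 0.41, adjusted p = 0.427). In the medial zone it was at 4.69 and 4.53 with no lesion, 5.15, 4.96, 4.21 and 6.25 at day 2, and 4.77, 4.51 and 6.46 at day 7. These groups overlapped, and their log2 fold changes were 0.53 (SE 0.43) at day 2 and 0.63 (SE 0.46) at day 7. Each rested on a single array, with 0.16 without day 2 replicate 4 and 0.026 without day 7 replicate 3. A second, dimmer probe set of rps27l gave 0.47 at day 2 and 0.77 at day 7 in the dorsal SVZ. It gave 0.40 and -0.28 in the parenchyma, and 0.75 and 0.67 in the medial zone.

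Other members with an unadjusted p under 0.05 against no lesion were the large subunit genes rpl29 (0.48, SE 0.16, adjusted p = 0.381) and rpl31 (0.32, SE 0.15, adjusted p = 0.693) in the dorsal SVZ at day 2. At day 7 they were rplp2 in the dorsal SVZ (0.40, SE 0.17, adjusted p = 1), and rpl36 (-0.44, SE 0.19, adjusted p = 0.4) and rps20 (-0.35, SE 0.17, adjusted p = 0.457) in the parenchyma. These genes other than rplp2 were named after their values were seen.

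Between day 7 and day 2 no member passed the test either, where 1.15% of all genes were called in the parenchyma, 0.0519% in the dorsal SVZ and 0.421% in the medial zone. The differences were positive for 10, 22 and 11 of the 70 members, and their medians were -0.18, -0.025 and -0.11. All day 7 arrays lay below all day 2 arrays for 18 members in the parenchyma, 12 in the dorsal SVZ and 12 in the medial zone, against 6.23%, 6.36% and 4.3% of all genes, and above them for 0, 1 and 0 members, against 5.67%, 4.58% and 4.55%. At an unadjusted p under 0.05 there were 13 members in the parenchyma, all lower at day 7, 0 in the dorsal SVZ and 5 in the medial zone. That is 18.6%, 0% and 7.14% of the members, against 10.2%, 4.54% and 8.75% of all genes. In the parenchyma the largest of these after rps27l was rps20 (-0.50, SE 0.15, adjusted p = 0.141). Leaving out a single day 7 array moved the median to between -0.26 (without replicate 3) and -0.051 (without replicate 1) in the parenchyma, and between -0.21 (without replicate 3) and -0.057 (without replicate 1) in the medial zone. In the dorsal SVZ it lay between -0.066 (without replicate 3) and -0.0093 (without replicate 2). The day 7 comparisons share arrays with each other and with those at day 2, so their values are given side by side only.

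The lesion effect was also compared between regions. None of the 6 differences of effect called a member. Of all genes, 0.0519% were called for the day 2 effect in the dorsal SVZ minus that in the parenchyma, 0.0104% for the medial zone minus the parenchyma at day 2 and at day 7, and 0% in the other 3. Past an unadjusted p of 0.05 in 2 of them was rps20, whose day 7 effect was 0.53 higher in the dorsal SVZ (SE 0.23, adjusted p = 0.645) and 0.58 higher in the medial zone (SE 0.24, adjusted p = 0.806) than in the parenchyma. The median difference of the day 2 effect over the members was -0.020 for dorsal SVZ minus parenchyma, -0.023 for medial zone minus parenchyma and -0.0086 for medial zone minus dorsal SVZ. The sign of each turned without 1 unlesioned array, to 0.032 without dorsal SVZ replicate 2, and to 0.0485 and 0.055 without medial replicate 1. For day 7 it was 0.14, 0.036 and -0.095. The first 2 of these were 0.031 and -0.095 without parenchyma day 7 replicate 1, and 0.23 and 0.17 without parenchyma day 7 replicate 3. The third was -0.17 without medial day 7 replicate 3 and -0.016 without the unlesioned medial replicate 1.

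The second question was whether the regions differed. With the 3 times averaged, 22 of 70 members differed between the dorsal SVZ and the parenchyma, 21 of them higher in the dorsal SVZ and 1 lower. That is 30% of the members higher, against a background of 11.9% of all genes, and 1.43% lower against 7.28%. In all, 31.4% of the members and 19.2% of all genes were called. The members called higher were 11 of the large and 10 of the small subunit. The difference was positive for 61 members with a median of 0.16, and for 49 with a median of 0.078 when the arrays were quantile-normalised again, which called 13 higher and 2 lower. Without parenchyma day 7 replicate 1 the counts were 18 higher and 1 lower and the median 0.12.

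These calls came from the 3 times together. At single times the dorsal SVZ differed from the parenchyma for 1 member with no lesion, 0 at day 2 and 9 at day 7, against 6.69%, 6.98% and 8.42% of all genes. The median difference of the members was 0.094 (0.15 without the unlesioned dorsal SVZ replicate 3), 0.12 and 0.24. With same-numbered arrays of a time as a block, which deviated together in these regions at day 2 and day 7, the count at day 7 was 6. The parenchyma day 7 group holds the array that was low for most members.

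The gene that differed most clearly was rpl5b (probe set 13214201), whose protein binds the 5S ribosomal RNA and carries it into the large subunit. It lay at 9.16 to 10.13 in the parenchyma (median 9.90), 10.24 to 10.66 in the dorsal SVZ (median 10.49) and 10.41 to 10.89 in the medial zone (median 10.64). No array of either ventricular region overlapped with the parenchyma. The difference from the parenchyma was 0.68 in the dorsal SVZ (SE 0.12, adjusted p = 0.000106) and 0.86 in the medial zone (SE 0.12, adjusted p = 4.09e-06). With no lesion it was at 9.86 and 9.50 in the parenchyma, 10.38, 10.52 and 10.47 in the dorsal SVZ, and 10.74 and 10.56 in the medial zone. It was the only member called in unlesioned tissue between the dorsal SVZ and the parenchyma (0.78, SE 0.21, adjusted p = 0.0281), where 6.69% of all genes were called, and was called between the medial zone and the parenchyma as well (0.97, SE 0.23, adjusted p = 0.00839), where 10.5% were. The first of these calls was lost without any 1 of 4 of its 5 arrays (parenchyma replicate 2 and each dorsal SVZ replicate), with adjusted p from 0.0569 to 0.222. It was also lost with quantile-normalised arrays (0.0652), with the replicate number as a fixed block over all times (0.0568) or within a time (0.0643), and with only the groups compared (0.0739). The second was lost without parenchyma replicate 2 (0.0859), without medial replicate 1 (0.0772) and with only the groups compared (0.0901). The copy rpl5a was read only on a probe set with several symbols and was not analysed here, and its mRNA could bind probes for rpl5b.

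Next in the dorsal SVZ came rps6 (probe set 12957383), the small subunit protein that S6 kinases phosphorylate when mTOR is active. It was at 9.58 to 10.41 in the parenchyma (median 10.11), 10.49 to 10.79 in the dorsal SVZ (median 10.64) and 9.82 to 10.52 in the medial zone (median 10.36). The dorsal SVZ arrays all lay above the parenchyma arrays, as was so for rpl5b and no other member. That is 2.86% of the members, not above the background of 3.23% of all genes. No member had all dorsal SVZ arrays below the parenchyma, against 1.17% of all genes. The dorsal SVZ was 0.53 above the parenchyma (SE 0.11, adjusted p = 0.000607) and the medial zone 0.33 below the dorsal SVZ (log2 difference -0.33, SE 0.10, adjusted p = 0.0251).

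The remaining leading genes overlapped between regions. The small subunit gene rps27l was higher than in the parenchyma by 0.94 in the dorsal SVZ (SE 0.25, adjusted p = 0.00739) and by 1.07 in the medial zone (SE 0.25, adjusted p = 0.00181). Its arrays spread from 3.31 to 4.86 in the parenchyma, 4.03 to 5.66 in the dorsal SVZ and 4.21 to 6.46 in the medial zone. Its second, dimmer probe set gave 0.35 (adjusted p = 0.264, not called) and 0.58 (0.036) with every probe set tested. With no lesion neither difference of the set used was called. At day 2 alone they were 0.91 (adjusted p = 0.229) and 0.74 (0.2), while both passed at day 7 alone. In the parenchyma 5 of the 8 arrays were within 1 of the table median, so that both differences are set against a signal near background. The gene of Rpl3, a protein next to the peptidyl transferase centre, was at 9.57 to 10.31 in the parenchyma and 10.20 to 10.56 in the dorsal SVZ, a difference of 0.41 (SE 0.093, adjusted p = 0.00223). The small subunit gene rps3a was at 9.08 to 9.93 and 9.86 to 10.14, a difference of 0.40 (SE 0.11, adjusted p = 0.01).

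One member ran the other way. The stalk protein gene rplp2, whose product helps recruit elongation factors to the ribosome, was at 10.48 to 10.78 in the parenchyma, 9.72 to 10.66 in the dorsal SVZ and 10.25 to 10.64 in the medial zone. The dorsal SVZ was below the parenchyma by 0.34 (log2 difference -0.34, SE 0.10, adjusted p = 0.0177), and this call was lost without the unlesioned parenchyma replicate 1 (adjusted p = 0.0542) and with the replicate number within a time as a fixed block (0.0673). At day 7 alone the difference was -0.097 (adjusted p = 0.83). Its copy rplp2b was at 11.53 to 12.15, 11.78 to 12.12 and 11.67 to 12.16, with a difference of 0.061 (SE 0.086, adjusted p = 0.67). Its partner in the stalk, rplp1, differed by 0.16 (SE 0.081, adjusted p = 0.187).

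**Figure D4:**
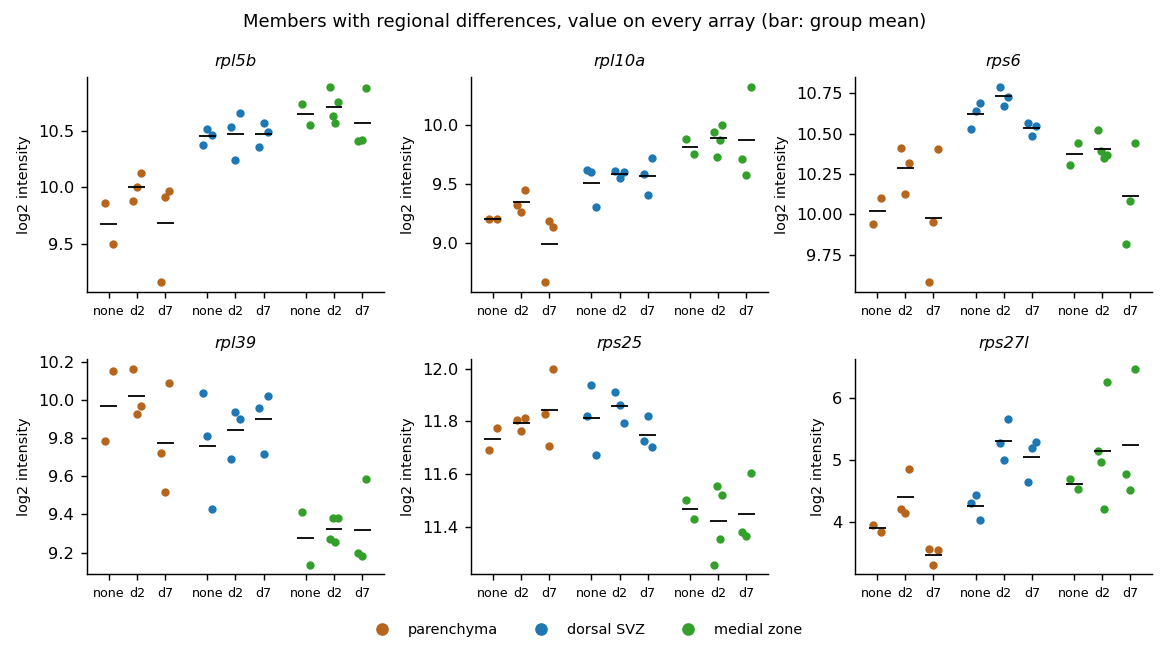
Log2 intensity (y axes, each with its own scale) of 6 members on all 26 arrays (points) by region and time (x axes, none for no lesion, d2 for day 2, d7 for day 7), with bars at group means. For rpl5b all ventricular arrays lie above the parenchyma, for rps6 all dorsal SVZ arrays do, and for rps25 all medial arrays lie below both other regions.

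Between the medial zone and the parenchyma 25 members differed, 16 higher and 9 lower in the medial zone. That is 35.7% of the members where 34.1% of all genes were called, 22.9% against 20.6% higher and 12.9% against 13.4% lower, so that the count did not stand out from the background. The members moved in both directions, with 44 positive and a median of 0.078 (0.0265 without parenchyma day 7 replicate 1 and 0.12 without replicate 3), and the split depended on the arrays and the scaling. It was 9 higher and 12 lower without parenchyma day 7 replicate 1, and 21 higher and 5 lower when each array was centred on its median, which moved the median of all genes from 0.0014 to 0.068. The total was 14, with 6 higher and 8 lower, without the unlesioned medial replicate 1, and 15 without the unlesioned parenchyma replicate 2. At single times 2 members were called with no lesion, 7 at day 2 and 11 at day 7, against 10.5%, 18% and 14% of all genes.

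Of all genes, 11.9% were called higher than in the parenchyma in the dorsal SVZ and 20.6% in the medial zone. The share called in both was not counted, so the overlap of the members is not read as particular to them. Called higher than in the parenchyma in each ventricular region were rpl3, rpl5b, rpl8, rpl10a, rpl15, rps4x, rps7 and rps27l, in comparisons that share the parenchyma arrays. Among them rpl10a (probe set 13245637), of the mobile stalk near the ribosome's exit site for tRNA, was at 8.67 to 9.45 in the parenchyma (median 9.20), 9.31 to 9.72 in the dorsal SVZ (median 9.60) and 9.58 to 10.32 in the medial zone (median 9.88). The medial arrays all lay above the parenchyma, which only rpl5b shared among the members. That is 2.86% of the members, not above the background of 4.77% of all genes. The medial zone was above the parenchyma by 0.68 (SE 0.11, adjusted p = 3.02e-05), and the dorsal SVZ by 0.37 (SE 0.11, adjusted p = 0.0133). The small subunit gene rps4x was at 9.93 to 10.66, 10.51 to 10.82 and 10.57 to 10.91, and was 0.37 higher in the medial zone than in the parenchyma (SE 0.080, adjusted p = 0.000881). For rpl3 the same difference was 0.37 (SE 0.095, adjusted p = 0.00416).

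Among the members lower in the medial zone was rpl39 (probe set 13015926), the gene of a small protein that lines the exit tunnel of the large subunit. It was at 9.52 to 10.16 in the parenchyma, 9.43 to 10.04 in the dorsal SVZ and 9.14 to 9.59 in the medial zone. Its difference from the parenchyma was -0.61 (SE 0.11, adjusted p = 0.000123) and from the dorsal SVZ -0.53 (SE 0.11, adjusted p = 0.000716).

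With no lesion, rpl39 was at 9.79 and 10.15 in the parenchyma, 10.04, 9.81 and 9.43 in the dorsal SVZ, and 9.42 and 9.14 in the medial zone. Both medial arrays lay below both parenchyma arrays, and the difference was called at -0.69 (SE 0.22, adjusted p = 0.0445). This call was lost under the omission of any 1 of these 4 arrays, with adjusted p from 0.0505 to 0.259. No member was called between the unlesioned medial zone and the unlesioned dorsal SVZ, where 4.15% of all genes were, and 7 members, or 10% against 14.3% of all genes, had an unadjusted p under 0.05. The unlesioned dorsal SVZ arrays all lay above the parenchyma for 30 members and below for 5, against 19.4% and 17.1% of all genes. The unlesioned medial arrays lay above the parenchyma for 25 and below for 12, against 27.5% and 21.9%, and above the dorsal SVZ for 8 and below for 23, against 17.9% and 14.2%.

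The small subunit gene rps25 (probe set 12970606), which internal ribosome entry needs in yeast and human cells, separated the medial zone fully. It was at 11.69 to 12.00 in the parenchyma (median 11.79), 11.67 to 11.94 in the dorsal SVZ (median 11.82) and 11.26 to 11.60 in the medial zone (median 11.43). It was the only member with all medial arrays below the parenchyma, or 1.43% of the members against 2.13% of all genes. The differences of the medial zone were -0.35 from the parenchyma (SE 0.081, adjusted p = 0.00195) and -0.36 from the dorsal SVZ (SE 0.078, adjusted p = 0.00149). Smaller called differences of the medial zone from the parenchyma were those of rpl38, which translation of Hox mRNAs needs in the mouse (-0.33, SE 0.10, adjusted p = 0.0156), and of rps21 (-0.32, SE 0.096, adjusted p = 0.0136). The first was lost with centred arrays (adjusted p = 0.0572), and was -0.035 at day 7 alone. The second was lost without the unlesioned medial replicate 2 (adjusted p = 0.0502).

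Between the 2 ventricular regions 14 members differed, 1 higher and 13 lower in the medial zone. That is 20% of the members where 19.6% of all genes were called, with 18.6% of the members lower against a background of 8.27% and 1.43% higher against 11.3%. The difference was positive for 17 of 70 members with a median of -0.10, but for 34 with a median of -0.0034 when the arrays were quantile-normalised again, which called 4 higher and 9 lower. Without the unlesioned medial replicate 2 the count was 9, all lower. At single times 0 members were called with no lesion, 1 at day 2 and 1 at day 7, against 4.15%, 9.03% and 6.75% of all genes.

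Besides rpl39, large differences among these were those of rpl38 and rpl17. The former was at 9.24 to 9.61 in the dorsal SVZ and 8.78 to 9.46 in the medial zone (-0.44, SE 0.099, adjusted p = 0.00214). The latter, near the exit of the peptide tunnel, was at 6.32 to 6.68 in the dorsal SVZ and 5.93 to 6.26 in the medial zone (-0.40, SE 0.079, adjusted p = 0.000573). The medial and dorsal SVZ arrays did not overlap for rpl17, rps25, rpl23a and rpl23, all lower in the medial zone. That is 5.71% of the members against 2.34% of all genes. No member had all medial arrays above, against 2.6% of all genes. The gene rps24 was also called (-0.25, SE 0.079, adjusted p = 0.0277), on a probe set near background. The 1 member called higher in the medial zone was rpl10a (0.30, SE 0.10, adjusted p = 0.042), a call that was lost when any of 13 single arrays was left out.

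**Figure D5:**
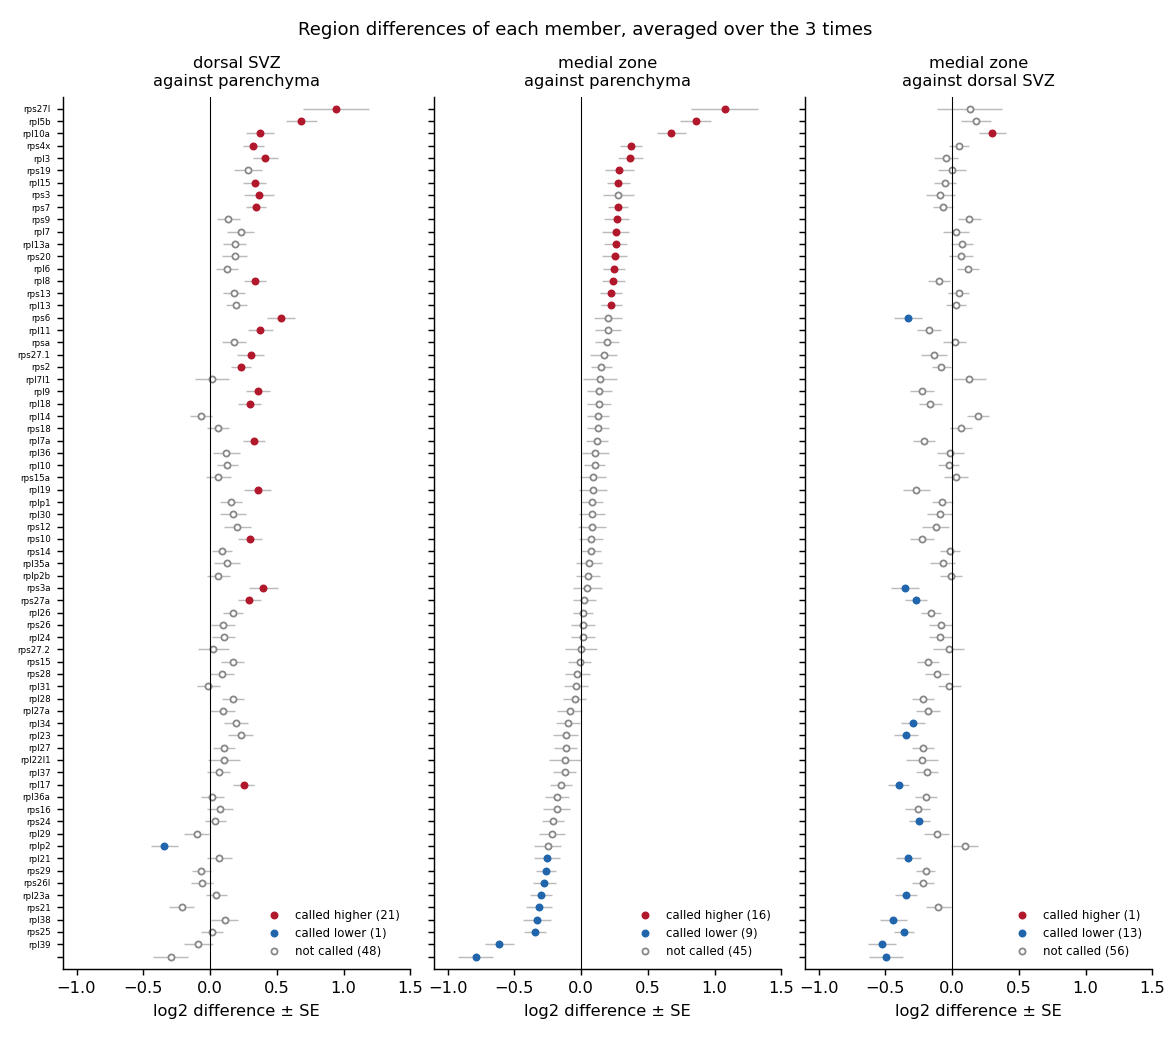
Log2 difference between regions averaged over the 3 times (x axes) with its SE for each of the 70 members (y axis, ordered by the medial zone against parenchyma), in 3 panels. Filled red points were called higher and filled blue points lower, 21 and 1 on the left, 16 and 9 in the middle and 1 and 13 on the right, where quantile-normalising the arrays again gave 4 and 9. A single row carries no name.

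Values of 4 further members with well-known roles follow. Of these, 3 were called between the dorsal SVZ and the parenchyma, where 31.4% of the members and 19.2% of all genes were. They were picked by name, so the count says nothing of members with such roles in general. The gene of rpsa, related to a laminin receptor, was at 10.08 to 10.67 in the parenchyma, 10.32 to 10.82 in the dorsal SVZ and 10.32 to 10.81 in the medial zone, and was not called (0.18, SE 0.090, adjusted p = 0.186, for dorsal SVZ against parenchyma). The gene rps3, at the mRNA entry channel and in DNA repair in human cells, was at 10.14 to 11.16, 10.99 to 11.26 and 10.46 to 11.30, and was in the dorsal SVZ 0.37 above the parenchyma (SE 0.11, adjusted p = 0.0225). The ubiquitin fusion gene rps27a was at 10.27 to 10.87, 10.74 to 11.08 and 10.41 to 10.75. In the dorsal SVZ it was 0.29 above the parenchyma (SE 0.085, adjusted p = 0.0151) and differed by -0.27 between the medial zone and the dorsal SVZ (SE 0.083, adjusted p = 0.0225). The gene rpl11, which binds 5S ribosomal RNA together with Rpl5, was at 11.08 to 11.89, 11.76 to 12.11 and 11.44 to 12.05 and in the dorsal SVZ was 0.38 above the parenchyma (SE 0.095, adjusted p = 0.006). Its second probe set, at a mean of 2.87 near background, gave -0.087.

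Copies and like genes did not always have the same values. For the pair rps27.1 and rps27.2 the dorsal SVZ differed from the parenchyma by 0.30 (SE 0.10, adjusted p = 0.0385) and 0.023 (SE 0.12, adjusted p = 0.917). For rps26 and rps26l the medial zone differed from the parenchyma by 0.011 (SE 0.090, adjusted p = 0.94) and -0.28 (SE 0.086, adjusted p = 0.0153). For rpl7 and rpl7l1 it differed by 0.26 (SE 0.10, adjusted p = 0.0489) and 0.14 (SE 0.13, adjusted p = 0.406). Whether the copies differed from each other was not tested. Copies can share probe matches, and the probe sequences were not used here. Of the 16 members with a second single-symbol probe set, the sets differed in sign where the member was called for rpl11 alone. The calls themselves differed more often when every probe set was tested. The second set of rpl28 (mean 10.78) gave -0.61 for the medial zone against the dorsal SVZ (adjusted p = 6.08e-05), and the set used -0.22 (0.0685). Against the parenchyma they gave -0.42 (0.00247) and -0.047 (0.709). For rps19 the second set did not repeat the call of the medial zone against the parenchyma (0.085, adjusted p = 0.511). For rpl23 and rps20 it repeated the call.

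Marker lists moved between the same regions, and the counts here are of genes called. Against the parenchyma, 11 of 15 radial glia genes were higher and 1 lower in the dorsal SVZ, with a median difference of 1.66, and 12 were higher in the medial zone, with a median of 1.69. Of 25 genes of mature neurons, 13 were lower and 1 higher in the dorsal SVZ, and 11 lower and 4 higher in the medial zone. The mean of the neuronal genes was 7.52 to 8.05 over the parenchyma arrays, 7.05 to 7.54 over the dorsal SVZ and 7.15 to 7.75 over the medial zone. Of 15 endothelial genes, 11 were lower in each ventricular region, and 2 were higher in the dorsal SVZ. Of 10 oligodendrocyte genes, 6 were lower and 1 higher in the dorsal SVZ and 5 lower and 1 higher in the medial zone. Of 27 microglial genes, 8 were lower and 1 higher in the dorsal SVZ and 10 lower in the medial zone, and of 11 erythrocyte genes 2 were lower and 1 higher, and 5 lower and 1 higher. Of 26 cell cycle genes, 8 were above the parenchyma in the dorsal SVZ and 19 in the medial zone, and 19 were higher in the medial zone than in the dorsal SVZ. The part of the cell makeup of the regions in the differences of the ribosomal protein genes was not tested.

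Other genes of translation were counted from lists for the same comparisons, where each count is read against the background of that comparison given above. Of 69 ribosome biogenesis genes, which process ribosomal RNA and assemble the subunits in the nucleolus, against the parenchyma 13 were higher in the dorsal SVZ and 38 in the medial zone, and 14 were higher in the medial zone than in the dorsal SVZ. None was lower in these comparisons. Their median differences were 0.17, 0.38 and 0.19, where the ribosomal protein genes had 0.16, 0.078 and -0.10, the last of which was -0.0034 on quantile-normalised arrays. The largest were nop56 (1.201, SE 0.14, adjusted p = 2.56e-07) and fbl (1.06, SE 0.15, adjusted p = 4.8e-06) in the medial zone against the parenchyma. Both encode nucleolar proteins of the particles that methylate ribosomal RNA. Then came the nucleostemin gene gnl3 (1.04, SE 0.15, adjusted p = 7.05e-06). In no lesion comparison was a gene of this list called against no lesion.

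Of 59 genes with an initiation factor symbol, 16 were higher in the dorsal SVZ and 28 higher and 1 lower in the medial zone than in the parenchyma. The symbols take in repressors of the cap-binding factor, of which eif4ebp3l was higher in both (0.83, SE 0.15, and 0.78, SE 0.15), beside that factor's own gene eif4eb (1.26, SE 0.25, and 1.45, SE 0.25). Of 21 elongation and release factor genes, 5 were higher and 1 lower in the dorsal SVZ, and 11 higher and 2 lower in the medial zone. The elongation factor gene eef1da was higher by 1.86 in the dorsal SVZ (SE 0.14, adjusted p = 4.79e-10) and 1.298 in the medial zone (SE 0.14, adjusted p = 1.55e-07). It was also the 1 translation factor called after lesion, with a rise of 1.58 in the parenchyma at day 2 (SE 0.26, adjusted p = 0.000777).

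Of 13 RNA polymerase I genes, 3 were higher in the medial zone than in the parenchyma, where 20.6% of all genes were. They were taf1b (0.57, SE 0.16), polr1a (0.50, SE 0.13) and ubtf (0.30, SE 0.11). Of 24 genes of growth signalling to ribosomes, 5 were higher and 3 lower in the medial zone, against 20.6% and 13.4% of all genes. In the dorsal SVZ 3 were higher and 2 lower, against 11.9% and 7.28%. The counts of both lists were near the background. Among the growth signalling genes called, mycb was higher in the medial zone (0.94, SE 0.21, adjusted p = 0.00134) and myca in the dorsal SVZ (0.62, SE 0.16, adjusted p = 0.00614). The mTOR inhibitor gene tsc1b was lower in both (-0.53, SE 0.11, and -0.49, SE 0.11). The other called genes of this list are not named, so these 3 give no direction for it. Of 68 mitochondrial ribosomal protein genes, 1 was higher and 3 lower in the dorsal SVZ and 2 higher and 8 lower in the medial zone than in the parenchyma. At day 2 in the parenchyma 2 of them fell, mrps33 (-0.87, SE 0.22, adjusted p = 0.0398) and mrps2 (-0.83, SE 0.17, adjusted p = 0.00741). The small subunit protein gene rack1, outside the symbol rule, was 0.36 higher in the dorsal SVZ (adjusted p = 0.00486) and 0.30 higher in the medial zone (adjusted p = 0.0123) than in the parenchyma.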

How the data were processed

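Expression was measured on Affymetrix arrays in 26 samples. The authors deposited RMA values as log2 intensity per probe set, from Affymetrix Expression Console 1.2, per the submitters' processing notes. RMA corrects background and scales the arrays to each other, so a change shared by all genes may be hidden. The deposited array medians still ranged from 3.01 to 3.21. The genome build is not given in the sources used here, and no position is reported. Precision is limited by 2 to 4 arrays per group.

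Gene names came from the platform's annotation, in which 20806 of 75212 carried 1 symbol, 855 several and 53551 none. Symbols that match the rule stood on 102 probe sets, 16 of them with several symbols, which left out 7 symbols (rpl4, rpl5a, rpl12, rpl22, rpl32, rps23 and rps19bp1). The last of these matches by symbol only and names a binding protein of Rps19. All 70 members were found by Entrez identifier in the current RefSeq gene table, with no symbol changed. No sequences are shown. A member is counted but not reported by name here.

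With limma 3.58.1 (R 4.3.3; lmFit, then eBayes), all 26 arrays entered 1 fit with a mean for each of the 9 groups, from which 21 comparisons were taken. Calls are those under 0.05 after Benjamini-Hochberg adjustment over the 19260 genes of a comparison, and every adjusted p comes from limma. Region differences average the 3 times with equal weight. The fit was also run on simulated data with independent noise for each gene and array. The members deviated together within an array, so that run is not used as support here. Plots were drawn with matplotlib 3.10.9 (python 3.11.15).

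The members, the gene lists and the rule for named genes were chosen with earlier results of these data known. Named members were the 5 largest called rises and falls per comparison, the 4 brightest and 4 dimmest, the 4 widest and 2 narrowest ranges of group means, copies, members with well-known roles, and members whose probe sets disagreed in sign. Of other lists, up to 4 called genes per comparison and direction could be named. The alternatives were array weights, a filter on the genes of lowest mean signal, the mean of all probe sets, every probe set, quantile normalization again, array centring, the replicate number as a block, a trended robust prior, only the groups compared, and leaving out each array. A fit without the 2 arrays of lowest weight, region differences at single times, and the replicate number within a time as a block across regions were added after seeing the data.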

Additional observations from a re-analysis of the deposited data

Results flagged for a closer look

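Of the 71 sets of 4 arrays tested, the 70 members and their median in the medial zone at day 2, 2 held an array that stood apart from the other 3, where chance gives about 1 in 20. The large subunit gene rpl23a was at 11.325 in replicate 2 of that group, and the other 3 arrays lay within 11.224 to 11.24. The large subunit gene rpl38 was at 9.15 in replicate 4, and the others lay within 9.023 to 9.026. Both gaps are small beside the regional differences of these genes. No member was called in a difference of the lesion effect between regions (0 of 70).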

How the results depend on the processing

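Apart from single arrays left out, the counts of called members stayed within 1.5 times of their value in 244 of 270 recomputations. In most of the 21 comparisons the count in the main fit was 0, and a 0 that stayed 0 is included here. The share therefore says little of the comparisons that had calls. Values of called members lost their call in 25 of 393 recomputations without a single array, in 60 of 88 at single times and in 13 of 325 under other settings, and no called direction turned. The exceptions among the counts were these. For the unlesioned dorsal SVZ against parenchyma (1 called) the count was 4 with array centring, 4 with a trended robust prior, 2 without the 2 arrays of lowest weight, 0 with only the groups compared, and 0 with the replicate number as a fixed block, over all times or within a time. For the unlesioned medial zone against parenchyma (2 called) it was 1 with array weights, 1 with the replicate block, 4 with the robust prior and 0 with only the groups compared. For the medial zone against the dorsal SVZ (14 called) it was 23 with array weights and 27 with the robust prior. For the medial zone against parenchyma (25 called) it was 16 with only the groups compared. For parenchyma day 7 against day 2 (0 called) it was 2 with the robust prior. At day 2 alone the 3 regional counts were 0, 7 and 1, and at day 7 alone 9, 11 and 1. With the number within a time as a fixed block they were 0, 3 and 0 at day 2 and 6, 6 and 1 at day 7. Leaving out 1 array gave 18 to 26 for the dorsal SVZ against parenchyma, 14 to 25 for the medial zone against parenchyma, 9 to 17 for the medial zone against the dorsal SVZ, 0 to 1 for both unlesioned comparisons with the parenchyma, and 0 to 0 for the others. The cause of these moves was not tested, beyond the fewer arrays that single times and groups hold.

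Same-numbered arrays of a region did not deviate together across times (23 pairs, r from -0.098 to 0.12, median -0.018, 1 over 0.1). Across regions at 1 time, r ran from -0.15 to 0.24 (24 pairs, median 0.051, against -0.042 for other numbers). It was over 0.1 for 8 of 9 pairs at day 7, for 3 of 9 at day 2, all between parenchyma and dorsal SVZ, and for 0 of 6 with no lesion. The unlesioned parenchyma and medial groups held 2 arrays each, which deviate from their mean by equal and opposite amounts. Pairs with these groups, across regions or times, are therefore not separate tests. The labels do not say that a number marks shared animals, and not every pair passed, so the averaged differences were not paired. With the number as a fixed block the 3 regional counts were 19, 22 and 13, as a random block within a region 23, 26 and 16, as a fixed block within a time 18, 17 (9 higher and 8 lower) and 13, and as a random block within a time 22, 26 and 14. Each group held 2 to 4 arrays, which limits what can be seen below a log2 difference of about 0.5. The dim members rps24 and rpl10, and rps27l in the parenchyma, were near background, where a change would be understated.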
